A study of Mus musculus with 2 samples.

Results

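Ly6c2-high cells of the inflamed mouse ear were selected by their reads, and 175 of the 7500 barcodes that met the quality limits and could be assigned to a pool were kept. A barcode, taken here as 1 cell, had to hold at least 200 genes and at most 20% mitochondrial reads. Levels were given as CPM, the reads of a gene scaled to a fixed total of reads of the cell or pool. A cell was kept when Csf1r, Cd68, Ms4a6c and Ms4a7 together reached 300 CPM and Ly6c2 reached 300 CPM, with Col1a1 under 3000, S100a8 plus S100a9 under 5000, Pdcd1lg2 under 50, Gpnmb under 50 and Lyve1 under 200 CPM. These 11 genes chose the cells, so their levels are given only as a description. The monocyte-macrophage limits alone, which use the first 4 of these genes with Col1a1, S100a8 and S100a9, kept 1562 cells and are called the base gate below.

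The cells came from IgE-mediated chronic allergic inflammation (IgE-CAI) of the skin, in which 300 µg of IgE against trinitrophenyl (TNP) was given intravenously and 10 µg of TNP-coupled ovalbumin (TNP-OVA) was injected into the ear the next day. Male wild-type (WT) BALB/c mice and Ccr2-/- mice on the same background, 7 to 12 weeks old, were sampled on day 3 and day 5 after challenge, and all 4 groups had been sensitized and challenged. Each genotype and day made up 1 pool with its own hashtag antibody, and the number of mice in a pool is not given in the sources used here. The 4 pools shared 1 cDNA library and 1 hashtag library, and 8696 of 8953 barcodes were found in both. Where 4 values follow each other below, those of WT mice come before those of Ccr2-/- mice, and day 3 comes before day 5 within each genotype.

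Classical monocytes are made in the bone marrow, carry the surface protein Ly6C and leave the marrow through the chemokine receptor CCR2, which responds to the ligands CCL2 and CCL7. Once in inflamed skin they can lose Ly6C and take up the genes of macrophages or of dendritic cells. Plasmacytoid dendritic cells (pDCs), a separate lineage known for making type I interferon, also carry Ly6C in the mouse.

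The pools held 121, 16, 20 and 18 of the selected cells. Together they gave 7109375 reads, with a median of 34644 and a range of 3212 to 170542 reads a cell. None of the 175 was marked as a doublet by Scrublet, and 14 had under 10000 reads. The reads are not counted per molecule, so the intervals on levels below cover the counting of reads only. They leave out repeated reads of a molecule and the spread between cells and mice, and are too narrow for these. The intervals on shares cover counting error only.

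The nearest cell inside the Ly6c2 limit had 301 CPM and the nearest outside had 298 CPM. There were 10 selected cells within 100 CPM above the limit and 24 cells within 100 CPM below it. The median Ly6c2 level of the selected cells was 1287, 2301, 919 and 2172 CPM. The Ly6c2 gene lies at chr15:75108158-75111970 on the minus strand (GRCm38), next to its paralog Ly6c1 at chr15:75044018-75048830. The annotated messages of the pair were identical at 802 of 822 aligned bases (97.6%), and 252 of the 773 stretches of 50 bases in Ly6c2 (32.6%) were also present in Ly6c1, so reads of either gene can be counted to the other.

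The markers of classical monocytes were found in differing shares of the cells. Ifitm6, a membrane protein of the interferon-induced family that is typical of classical monocytes, had a read in 73 of 175 cells (41.7%). Plac8, which is high in monocytes and in pDCs, had a read in 138 (78.9%), and Ccr2 had a read in 135 (77.1%). When every cell was thinned to 10000 reads, Ifitm6 was found in 42.2% of the selected cells and in 0.150% of cells gated as fibroblasts (Col1a1 at 3000 CPM or more), which should lack the gene. The thinned shares for Ccr2 were 78.9% and 2.20%, and those for Plac8 were 79.5% and 16.9%. Each of the 3 was found in a larger share of the selected cells than of fibroblasts at the same depth. The shares over all cells mostly describe the WT day 3 pool, and they differed between pools. Ifitm6 had a read in 61 of 121, 5 of 16, 3 of 20 and 4 of 18 cells. Plac8 had a read in 100, 14, 13 and 11 of these cells, and Ccr2 in 107, 15, 6 and 7. Most of the selected Ccr2-/- cells thus had no read of Ifitm6 or Ccr2.

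A set of 23 selected cells (13.1%, interval 8.52 to 19.1) carried reads of at least 2 of the pDC markers Siglech, Ccr9, Klk1 and Cox6a2. Siglech is the inhibitory lectin used to recognise mouse pDCs, and Ccr9 is a chemokine receptor of the same cells. Ifitm6 was found in 0 of these 23 cells and in 73 of the other 152. Lyz2, the lysozyme of monocytes and macrophages, was found in 6 of the 23 and in 141 of the 152. The receptor Csf1r was found in 5 of the 23, while Cd68 was found in 16 and Ms4a6c in 14. These cells had a higher median level of Ly6c2 itself, 2858 CPM against 1217 CPM in the rest.

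The pDC markers were spread unevenly over the pools. The marked cells were 6 of 121, 3 of 16, 8 of 20 and 6 of 18, which is 6.57% of the selected WT cells (interval 3.05 to 12.1) and 36.8% of the selected Ccr2-/- cells (21.8 to 54.0). The same 2-marker criterion was met by 1.15% of Pdcd1lg2-positive cells, 5.48% of Lyve1-high cells and 0.794% of the remaining cells of the base gate. The summed level of the 5 listed pDC markers was 504, 2575, 3285 and 5363 CPM with all selected cells and 125, 291, 50.2 and 242 CPM without the marked ones. Among the unmarked cells Plac8 was found in 94 of 115, 11 of 13, 5 of 12 and 5 of 12, and Ifitm6 in 61, 5, 3 and 4 of these. The genotypes compared below thus also differed in the share of cells with these markers. The criterion was set after the data had been seen, so the cells are called Ly6c2-high here and the main counts and levels are also given without the 23 cells.

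**Figure D1:**
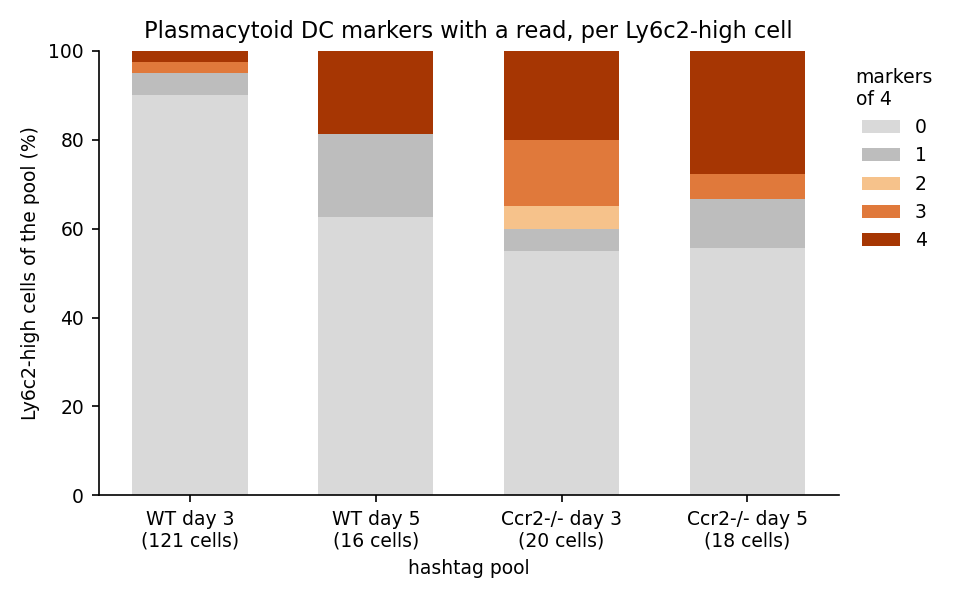
Selected cells of each pool (y axis, percent of the pool's Ly6c2-high cells) by how many of the 4 pDC markers Siglech, Ccr9, Klk1 and Cox6a2 had a read (colour, 0 to 4). Cells with 2 or more markers were 6 of 121 in the WT day 3 pool and 8 of 20 in the Ccr2-/- day 3 pool.

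Markers of cells outside the monocyte and dendritic lineages were low or came from single cells, apart from those of fibroblasts. Non-classical monocyte markers summed to 992, 937, 252 and 642 CPM. Markers of monocyte-derived and conventional type 2 dendritic cells summed to 2150, 4065, 2013 and 2266 CPM, so cells of these types may be among those selected. Natural killer cell markers summed to 9.23, 5.17, 479 and 966 CPM, and 1 cell held 99.5% and 99.8% of them in the Ccr2-/- pools, with Klre1 at 0 in every pool. Mast cell and basophil markers summed to 61.5, 10.3, 350 and 691 CPM, again with 95.8% and 96.5% from 1 cell in the Ccr2-/- pools. T cell markers stayed between 0 and 21.7 CPM and B and plasma cell markers between 0 and 8.84 CPM. Neutrophil markers summed to 185, 98.2, 135 and 90.8 CPM, with Mmp9 at 0 in 3 of the 4 pools. Fibroblast markers were present in all 175 cells at 613 to 856 CPM a pool, a level at which free RNA of the suspension cannot be told apart from the cell's own.

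Ly6c2-high cells were most frequent in the WT lesion on day 3. They made up 7.50% of the cells of that pool (121 of 1613, exact binomial interval 6.26 to 8.90) and 1.47% of the WT day 5 pool (16 of 1091, 0.841 to 2.37). In the Ccr2-/- lesion they were 0.880% on day 3 (20 of 2274, 0.538 to 1.36) and 0.714% on day 5 (18 of 2522, 0.424 to 1.13). The WT share was 8.53 times the Ccr2-/- share on day 3 and 2.05 times on day 5, and the WT share on day 3 was 5.12 times that on day 5.

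The shares were tested between genotypes, with the pools of both days together. The mean share of the WT pools exceeded that of the Ccr2-/- pools by 3.69 percentage points, with an exact two-sided permutation p of 0.333, which is the smallest value that 2 pools against 2 can give. Both WT pools lay above both Ccr2-/- pools. Without the 23 cells carrying pDC markers the shares were 7.16, 1.19, 0.530 and 0.477%, and the ratio of WT to Ccr2-/- on day 3 was 13.5. Taken as a share of the base gate, Ly6c2-high cells were 20.6, 3.02, 8.89 and 8.14%, so that the WT day 5 pool was then the lowest and the permutation p was 1.

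**Figure D2:**
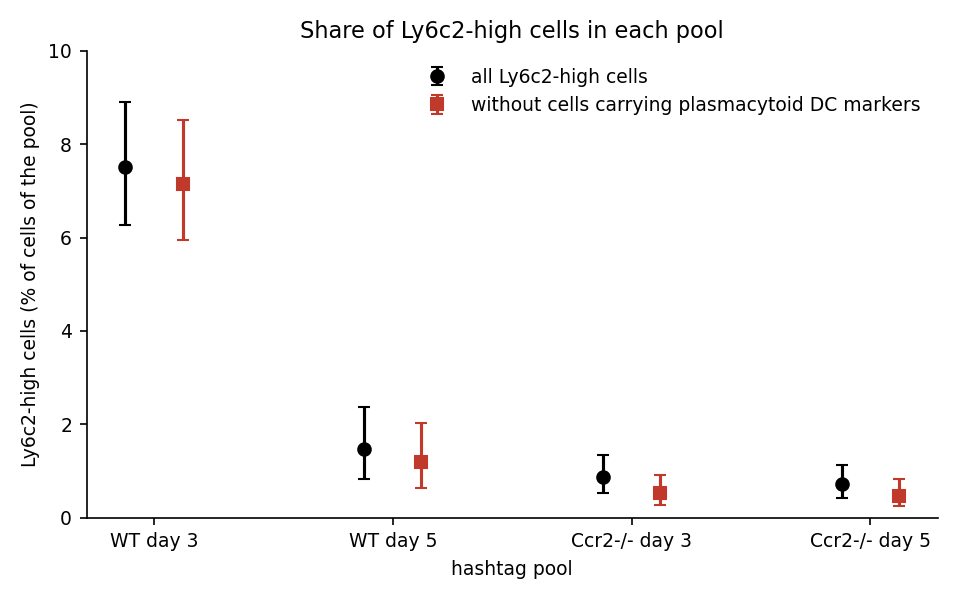
Ly6c2-high cells as a percent of all cells of each hashtag pool (y axis), with exact 95% binomial intervals that cover counting error only. Black points are all selected cells (7.50, 1.47, 0.880 and 0.714%), and red squares leave out the 23 cells carrying pDC markers (7.16, 1.19, 0.530 and 0.477%).

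The targeted gene comes first, as a check of the labels. Ccr2, at chr9:124101950-124113557 on the plus strand (GRCm38), had 1819 CPM in the WT day 3 cells (exact Poisson interval 1783 to 1856) and 1265 CPM in the WT day 5 cells (1175 to 1360). In the Ccr2-/- cells it had 362 CPM (323 to 404) and 241 CPM (198 to 291), which is 19.9% and 19.1% of the WT level of the same day. A single cell held 70.3% of the Ccr2 reads of the Ccr2-/- day 3 pool and 65.1% of those of the day 5 pool. Without the 2 highest cells of each pool the levels were 1771, 1084, 55.7 and 45.9 CPM. The Ccr2-/- values were then 3.06% and 3.63% of the WT level of the same day with all WT cells kept. The highest single cell had 7259, 3963, 5492 and 8279 CPM, and the second highest cells of the Ccr2-/- pools had 779 and 654 CPM, so both cells of each Ccr2-/- pool lay within the range of WT cells or above it. The median cell had 1822, 1419, 0 and 0 CPM. Why these cells carry the reads was not tested.

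Whether the selected cells differed between genotypes beyond their number was asked gene by gene on reads summed per pool, with day as a covariate. No gene passed an adjusted p of 0.05 (edgeR quasi-likelihood test with Benjamini-Hochberg adjustment), 0 higher (0.0% of 8066 tested) and 0 lower (0.0%), while 3.89% of them had an unadjusted p under 0.05 and DESeq2 called 19 higher (0.31% of 6138) and 9 lower (0.147%). The model had 1 residual degree of freedom. In simulated counts for this comparison on 7869 genes, 25% of 4-fold changes and 97% of 16-fold changes were recovered, with 6 false calls. The simulation gave every gene the same preset spread, which was not estimated from these pools. The recovery in the real counts may therefore be lower. The lists below are therefore described by their levels in each pool.

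The CCR2 ligands had their highest summed level in the Ccr2-/- day 3 cells. Ccl2, a ligand of CCR2, was at 1472, 736, 5993 and 1690 CPM, and Ccl7, another CCR2 ligand, was at 2038, 424, 8418 and 1883 CPM. On each day the summed level of the Ccr2-/- pool was the higher, with ratios of 4.13 and 4.44 for Ccl7. The edgeR test gave adjusted p values (Benjamini-Hochberg) of 0.999 for Ccl2 and 0.267 for Ccl7. In the median cell Ccl2 was at 461, 35.4, 430 and 0 CPM, so Ccr2-/- lay below WT on both days. Without the pDC-marked cells these medians were 497, 35.3, 1881 and 11.7 CPM, with Ccr2-/- above WT on day 3 only. The 19 listed chemokine ligands summed to 11978, 6533, 29717 and 10506 CPM with all cells and to 12495, 8845, 36473 and 20554 CPM without the pDC-marked cells. The median cell had 8095, 3727, 9525 and 1682 CPM of the list, so on day 5 the median Ccr2-/- cell lay below that of WT. Without the marked cells the medians were 8419, 7529, 16553 and 11712 CPM. A single cell held 29.5% of the Ccl2 reads of the Ccr2-/- day 3 pool and 57.3% of those of the day 5 pool, and Ccl2 had a read in 17 of 20 and in 7 of 18 of these cells. The sum of the list was also higher in Ccr2-/- than in WT on day 3 in Pdcd1lg2-positive cells (42137 against 22509 CPM) and in the remaining cells (30709 against 16638 CPM), so these subsets had the same order on day 3. On day 5 the Ccr2-/- sum of the Ly6c2-high cells was below that of WT day 3 and below those of the 3 other subsets (21267 to 24396 CPM). Of the list, 0 of 15 genes tested were called.

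Genes that interleukin 4 induces in macrophages showed the same order of pools on day 3. Arg1, which encodes arginase 1, was at 528, 43.1, 2081 and 773 CPM, with 81.9% of the last value from 1 cell. The interleukin 4 receptor chain Il4ra was at 512, 96.5, 1002 and 408 CPM. The 19 IL-4-induced genes summed to 3633, 1759, 9098 and 3473 CPM, and to 3773, 2153, 14017 and 6380 CPM without the pDC-marked cells, where the Ccr2-/- day 5 value lay above WT day 3. However, 1 cell held 44.0% of the list's reads in that Ccr2-/- day 5 pool. Its median cell had 1150 CPM, below the 2343 CPM of the median WT day 3 cell. The median fitted difference between Ccr2-/- and WT was 0.65 on the log2 scale over the 15 of these genes tested, and 1.03 without those cells, beside -0.07 and -0.19 over all genes tested. No gene of the list was called, and the pools of 16 to 20 cells give these levels little precision.

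Type I interferon-stimulated genes were highest in the WT day 3 cells. The 32 listed genes, which a cell switches on after interferon alpha or beta binds its receptor, summed to 5910, 2375, 1462 and 1779 CPM, and to 5967, 2186, 1139 and 1330 CPM without the pDC-marked cells. The median cell had 4345, 2062, 1050 and 1357 CPM of the list, and single cells of the WT day 3 pool ranged from 0 to 33875 CPM. In every pool the sum was above that of the Pdcd1lg2-positive cells (1975, 956, 658 and 701 CPM), of the Lyve1-high cells (1093, 1896, 518 and 1013 CPM) and of the remaining cells of the base gate (1862, 1226, 755 and 1207 CPM). The pattern was thus a high level in WT day 3 cells with wide variation between cells.

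The WT day 3 pool was also the highest in several individual genes. Isg15, which encodes a ubiquitin-like protein that is coupled to other proteins, was at 254, 22.4, 10.3 and 0 CPM. Slfn4, a schlafen gene of myeloid cells, was at 431, 75.8, 10.3 and 0 CPM. Ifi204, a nucleic acid sensor of the p200 family, was at 718, 183, 164 and 104 CPM, and Ms4a4c, a membrane protein of monocytes, was at 857, 193, 82.2 and 55.4 CPM. In each of these 4 genes the WT day 3 pool lay above the other 3 pools.

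Most genes of the list at 50 CPM or more were lower in WT on day 5. Of the 24 genes with at least 50 CPM in either WT pool, 20 were lower on day 5 and 1 was higher, with exact Poisson intervals that did not overlap. Over all 4658 genes at that level 28.1% were lower and 38.1% were higher. The median of the list was -1.67 on the log2 scale (CPM plus 1, day 5 over day 3), and -1.64 without the pDC-marked cells, beside 0.16 for all genes. Between genotypes the median fitted difference was -1.95 over the 24 genes tested, and -1.64 over 22 without those cells, beside -0.07 and -0.19 for all genes. No gene of the list was called in either fit between genotypes. By the tests against the other subsets described below, 1 gene of 31 tested was higher than in Pdcd1lg2-positive cells (Ifi44, beside 0.292% of all genes), 2 of 30 than in Lyve1-high cells (Stat2 and Bst2, beside 1.64%) and 1 of 32 than in the remaining cells (Bst2, beside 0.315%). Each of these 4 calls was lost without the pDC-marked cells, where 0 genes, 2 genes (Ifi44 and Ms4a4c) and 1 gene (Ifi44) were called instead.

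A gene of the list with another order was Bst2, which encodes tetherin and is also a surface marker of pDCs. It was at 184, 505, 296 and 636 CPM, and at 121, 190, 46.2 and 149 CPM without the pDC-marked cells. Its level was thus lowest in the WT day 3 cells when all cells were used.

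Sequence upstream of the start of these genes was read from RefSeq for GRCm38.p6, on the strand of the gene. A copy of GAAANNGAAA, the core of the element bound by the interferon-activated factor ISGF3, was searched on both strands of the 250 bases before each start. It was present for 12 of the 25 listed genes that had a sequence (48%) and for 936 of 27025 genes in all (3.46%). Copies may overlap. The 4 windows shown belong to a gene with 3 copies, a gene with 1 copy, the gene of the list with a window and the highest WT day 3 level, which had no copy, and Bst2 with its different order of pools. Capitals mark the copies.
Isg15, chr4:156200819-156201068, minus strand, 3 overlapping copies: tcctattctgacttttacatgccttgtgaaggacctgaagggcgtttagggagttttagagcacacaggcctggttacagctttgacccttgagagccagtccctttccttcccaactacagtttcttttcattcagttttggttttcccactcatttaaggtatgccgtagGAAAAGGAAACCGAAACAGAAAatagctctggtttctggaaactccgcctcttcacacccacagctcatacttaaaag
Slfn5, chr11:82951852-82952101, plus strand, 1 copy: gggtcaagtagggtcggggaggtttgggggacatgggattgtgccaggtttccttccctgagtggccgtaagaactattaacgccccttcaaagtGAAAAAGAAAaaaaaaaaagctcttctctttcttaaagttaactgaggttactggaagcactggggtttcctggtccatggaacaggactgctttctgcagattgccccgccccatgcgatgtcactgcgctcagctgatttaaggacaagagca
Ms4a4c, chr19:11407411-11407660, plus strand, no copy: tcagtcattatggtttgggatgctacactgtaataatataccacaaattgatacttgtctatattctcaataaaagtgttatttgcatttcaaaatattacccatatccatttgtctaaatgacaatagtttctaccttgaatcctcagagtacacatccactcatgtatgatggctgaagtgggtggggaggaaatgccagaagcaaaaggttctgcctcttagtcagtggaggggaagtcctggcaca
Bst2, chr8:71537473-71537722, minus strand, 2 overlapping copies: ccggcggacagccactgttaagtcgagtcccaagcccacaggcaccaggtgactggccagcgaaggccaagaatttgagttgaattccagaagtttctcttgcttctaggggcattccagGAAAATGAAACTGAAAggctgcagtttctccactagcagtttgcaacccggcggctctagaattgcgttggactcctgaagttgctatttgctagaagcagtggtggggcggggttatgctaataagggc
The copies of Isg15 begin 78, 72 and 66 bases before the start, those of Bst2 begin 130 and 124 bases before it, and that of Slfn5 begins 155 bases before it. Slfn5, another schlafen gene, was at 599, 238, 110 and 126 CPM. A copy of these letters describes the window and was not tested for binding.

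The summed level of antigen presentation genes was highest in the WT day 5 cells. The 27 genes of the interferon-gamma and MHC list summed to 17829, 25066, 12290 and 13749 CPM, and to 18148, 29188, 7727 and 14183 CPM without the pDC-marked cells. A single cell held 23.8% of the list's reads in the WT day 5 pool, and 30.0% without the marked cells. From WT day 3 to day 5 the sum also rose in Pdcd1lg2-positive cells (16498 to 28373 CPM). It did not rise in Lyve1-high cells (17691 to 16594 CPM) or in the remaining cells (27308 to 22593 CPM). Cd74, the invariant chain of MHC class II, was at 2897, 5783, 2316 and 2459 CPM, and H2-Aa, a class II chain, was at 1963, 4079, 1250 and 1495 CPM. Of 9 listed markers of monocyte-derived and conventional type 2 dendritic cells at 50 CPM or more, 8 were higher in WT on day 5 than on day 3 and 0 were lower, beside 38.1% higher and 28.1% lower over all genes at that level. Of 23 interferon-gamma and MHC genes at that level 12 were higher and 8 lower, with a median of 0.34 on the log2 scale, so the genes of that list were mixed.

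**Figure D3:**
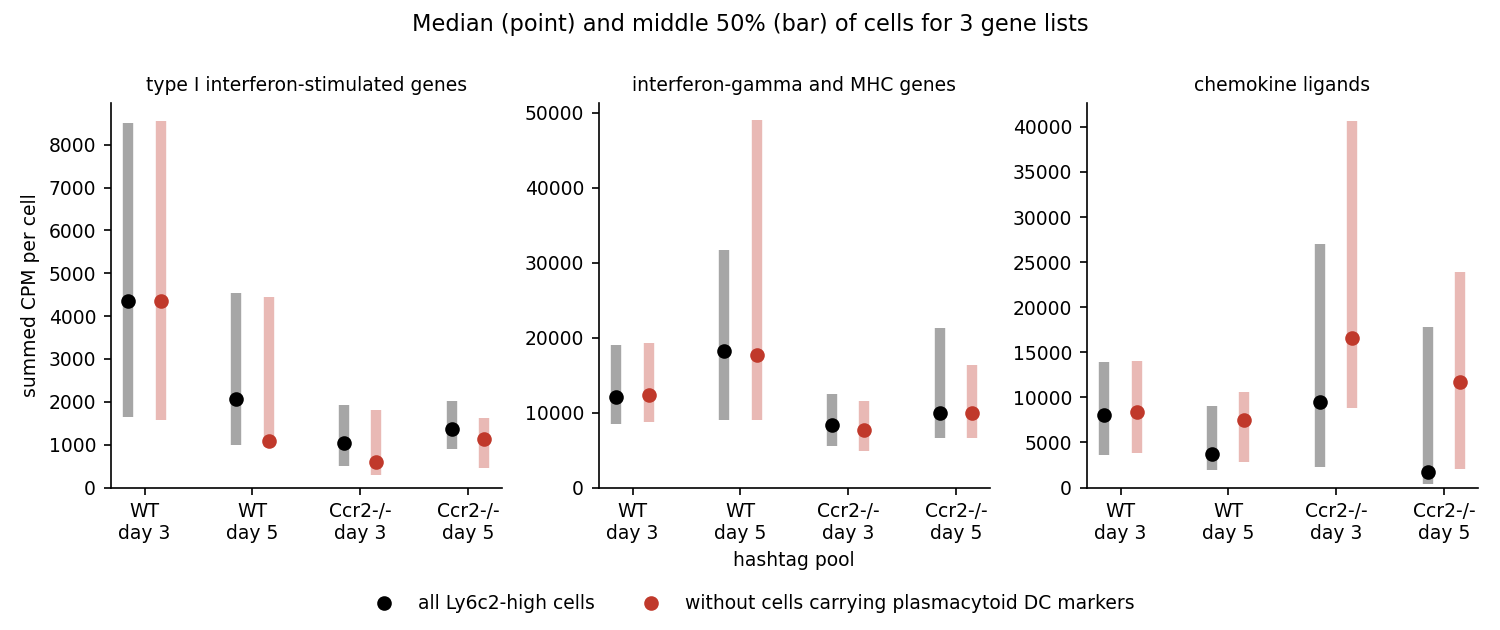
Summed CPM per cell (y axis) of 3 gene lists in the Ly6c2-high cells of each pool, with the median as a point and the middle 50% of cells as a bar. Black is all selected cells and red leaves out those carrying pDC markers. The median of the interferon list was 4345 CPM in the WT day 3 pool and between 1050 and 2062 CPM in the other pools.

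Between the WT pools, genes were also named by a rule of size, since 1 pool a day allows no test within WT. The rule's exclusions left 4286 genes at 50 CPM or more in either WT pool. Of these, 23.1% were higher and 27.1% lower on day 5 by the whole rule. It also asked for intervals that did not overlap and set limits on the cells holding the reads. The 12 lowest were Hbegf, Ccl24, Camk2d, Tarm1, Cd84, Plk3, Mdfic, Cd86, Rgcc, Rhov, Washc5 and Pmm2. Hbegf, a growth factor of the epidermal growth factor family, went from 211 CPM to no read, which allows up to 6.36 CPM. Ccl24, a ligand of the eosinophil receptor CCR3, went from 352 to 1.72 CPM. Cd86, a costimulatory ligand, went from 72.1 CPM to no read. In the Ccr2-/- pools Hbegf was at 735 and 57.6 CPM and Ccl24 at 916 and 935 CPM.

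The 12 with the largest increase in WT were Lag3, Klra17, Eldr, Fcrla, Cadm1, Cd4, Sla2, Cd8b1, Atp1b1, Cd209d, Irf4 and Pacsin1. Cd209d, a lectin of the DC-SIGN family, was at 82.3 and 1336 CPM, and Irf4, a transcription factor of dendritic cells, was at 10.8 and 181 CPM. The highest cell held 43.6% of the day 5 reads of Cd209d and, for Irf4, 40%. Lag3, an inhibitory receptor that binds MHC class II, was at 9.04 and 569 CPM, with 41.2% of the day 5 reads from 1 cell. Without the pDC-marked cells the WT values of Pacsin1 went from 13.5 and 198 CPM to 0 and 30.4 CPM, while those of Lag3 (0.602 and 570 CPM) and Irf4 (6.42 and 193 CPM) stayed apart. The day 5 pool held 16 cells, of which 3 were marked and 3 others had a read of 1 of the 4 pDC markers. Whether these unmarked cells belong to the pDC lineage was not tested. Across both genotypes the edgeR test of day called 0 genes higher and 0 lower (0.0% of 8066 each), with 456 at an unadjusted p under 0.05, and DESeq2 called 13 higher (0.178% of 7320) and 30 lower (0.41%).

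Against other cells of the base gate, each pool served as its own control and its Ly6c2-high cells were compared with 3 subsets. The Pdcd1lg2-positive cells (262) have reads of the gene for the ligand PD-L2. The Lyve1-high cells (73) have the hyaluronan receptor gene used to mark resident macrophages. The remaining cells (1008) lie below the limits on Ly6c2, Pdcd1lg2, Gpnmb and Lyve1. The 4 pools gave 8 sums for each comparison, with the pool as a block, and the genes of the gates were left out of the calls.

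Against Pdcd1lg2-positive cells, 37 genes were higher (0.292% of 12689 tested) and 7 were lower (0.0552%) at an adjusted p of 0.05 (edgeR with Benjamini-Hochberg adjustment). DESeq2 called 332 (2.97%) and 241 (2.16%). Without the pDC-marked cells 9 were higher (0.0717%) and 5 lower (0.0398%), and the 44 calls became 22 without the WT day 5 pool, 14 without the Ccr2-/- day 3 pool and 27 without the Ccr2-/- day 5 pool. Plac8 was at 2227, 1992, 1600 and 2095 CPM and on average at 151 CPM in the Pdcd1lg2-positive cells, a log2 fold change of 3.96 (adjusted p = 0.0090). Ifitm6 was at 457, 240, 110 and 226 CPM beside a mean of 12.6 CPM, a log2 fold change of 4.45 (adjusted p = 0.0022). Lyz2 was at 8582, 4094, 2974 and 3730 CPM beside 977 CPM, a log2 fold change of 2.40 (adjusted p = 0.040). These 3 genes and Ly6c1 stayed past the threshold without the pDC-marked cells, and Ly6c1 may hold reads of the gate gene Ly6c2.

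The genes lower than in Pdcd1lg2-positive cells included chemokines and complement. Ccl17, a ligand of CCR4 that interleukin 4 induces, had no read in the Ly6c2-high cells and a mean of 547 CPM in the Pdcd1lg2-positive cells, at least 548-fold lower when set against 3 reads over all the selected cells. C1qa, a chain of the complement component C1q, was at 43.6, 27.6, 14.8 and 11.1 CPM beside 355 CPM, a log2 fold change of -3.94 (adjusted p = 0.014). Mmp9, a gelatinase, had 3 reads in all, and a log2 fold change of -6.43 (adjusted p = 0.019). The other 4 were Socs2, C1qc, Ccl12 and Cd63. Ccl17, C1qa and Mmp9 also passed without the pDC-marked cells.

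The genes with the largest increase over Pdcd1lg2-positive cells were not called without the marked cells. Among the 12 were Klk1, Iglc3, Siglech, Il12a, Ccr9, Atp1b1, Fcrla, Klk1b27, Chst15, D13Ertd608e and Cd7. Klk1, a kallikrein, was at 132, 608, 1794 and 3232 CPM. Without the 23 cells none of the 12 passed the threshold or could be tested, which for Klk1, Siglech and Ccr9 was fixed by the criterion itself. For Cd7, which the criterion did not use, the log2 fold change went from 4.59 to 2.59 (adjusted p = 0.013 and 0.62, edgeR). Irf8, a transcription factor of monocytes and dendritic cells, behaved likewise at 275, 1303, 766 and 1032 CPM, and at 124, 286, 191 and 79.0 CPM without those cells.

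Against Lyve1-high cells, the selected cells differed in the most genes, with 175 higher (1.64% of 10691 tested) and 168 lower (1.57%). DESeq2 called 530 (4.64%) and 613 (5.36%). Without the pDC-marked cells the counts were 106 (1.02%) and 99 (0.951%), and the 343 calls became 197, 185, 186 and 134 when the pools were left out in turn. Of the 18 other classical monocyte genes tested, 9 were higher and 1 was lower, and the median log2 fold change was 3.80 beside -0.12 for all genes. Without the WT day 3 pool 4 of the 18 were higher. Ccr2 was 3.34 higher on the log2 scale (adjusted p = 0.039, edgeR) although the Ccr2-/- pools entered the fit. Hp, haptoglobin, was at 282, 24.1, 134 and 226 CPM beside 3.28 CPM, and the matrix genes Fn1 and Thbs1 rose by 2.61 and 3.03 on the log2 scale. Ly6c1, Gm9733, Cd177, Mcemp1 and Clec4e were also among those that were higher. F13a1, the coagulation factor XIII chain often named among monocyte genes, was lower at 507, 355, 100 and 235 CPM beside 1828 CPM, a log2 fold change of -2.94 (adjusted p = 0.0029). Of the same 18 genes, only 2 were higher than in Pdcd1lg2-positive cells (beside 0.292% of all genes) and 3 than in remaining cells (beside 0.315%). With all cells Ccr2 was not called against either of these subsets.

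Cd177 and another gene among the 12 with the largest increase, Mmp8, are also known from neutrophil granules. Cd177 was at 95.6, 75.8, 50.2 and 46.5 CPM and had no read in the Lyve1-high cells, at least 180-fold higher when set against 3 reads there. Mmp8, a collagenase, was at 78.4, 41.4, 73.0 and 28.8 CPM and likewise had no read, at least 151-fold higher. The neutrophil marker sums are given above, and their part in these values was not tested.

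The genes lower than in Lyve1-high cells included a part of the macrophage maturation list. Of 20 listed maturation genes, all tested, 13 were lower and 0 higher, with a median log2 fold change of -2.43. Over all genes tested 1.57% were lower and the median was -0.12. Without the WT day 5 pool 6 were lower and without the Ccr2-/- day 5 pool 8. C1qa fell by 6.95 on the log2 scale beside 2622 CPM (adjusted p = 1.7e-05), C1qb by 4.30, C1qc by 5.33 and Selenop, a selenium carrier, by 3.52. Apoe, Trem2, Mrc1, Folr2, Cd63, Ctsd, Lgmn, Pf4 and Stab1 were the others. Without the pDC-marked cells 9 of the 20 were lower, with a median of -2.24, beside 0.951% and -0.29 over all genes. Adgre1, the gene of F4/80, was then among the 9. The lectins Cd209g and Cd209f had 0 and 1 read in the selected cells beside means of 152 and 109 CPM. Of the 20 maturation genes, 3 were lower than in Pdcd1lg2-positive cells (beside 0.0552% of all genes) and 6 than in remaining cells (beside 0.131%).

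Against the remaining cells of the base gate, 48 genes were higher (0.315% of 15238 tested) and 20 were lower (0.131%), and DESeq2 called 272 (2.07%) and 401 (3.05%). Without the pDC-marked cells 24 were higher (0.161%) and 26 lower (0.175%). The 68 calls became 34, 40 and 24 without the WT day 5, Ccr2-/- day 3 and Ccr2-/- day 5 pools, and scaling by library size alone gave 61 higher and 40 lower. Plac8 (log2 fold change 3.69, adjusted p = 2.0e-05) and Ifitm6 (3.93, adjusted p = 0.00027) were higher in both fits (edgeR). Itga4, an integrin chain used to bind VCAM-1, rose by 1.79 on the log2 scale and also passed without the marked cells. Itga4 was at 182, 277, 94.7 and 159 CPM beside 49.3 CPM. Cybb, the catalytic chain of the phagocyte oxidase, and Hp were also higher in both fits, as was Ly6c1.

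The 12 lowest genes in this comparison were Fxyd2, C1qa, Enpp2, Hal, C4b, Npl, C1qc, Gas6, Pmp22, Hmox1, C1qb and Tns1. Hmox1, the haem oxygenase of macrophages, had a mean of 129 CPM beside 826 CPM, a log2 fold change of -2.82 (adjusted p = 0.0085, edgeR). Enpp2, which encodes autotaxin, had 11.5 CPM beside 367 CPM and fell by 4.94. Without the marked cells C4b, Pmp22 and Tns1 were no longer past the threshold and the other 9 were. Of the 12 highest, Klk1, Pacsin1, D13Ertd608e, Ccr9, Cd8a, Klk1b27, Il12a, Siglech, Spib, Slco4a1, Fcrla and Traf4, none passed or could be tested without them, which for Klk1, Ccr9 and Siglech was fixed by the criterion.

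**Figure D4:**
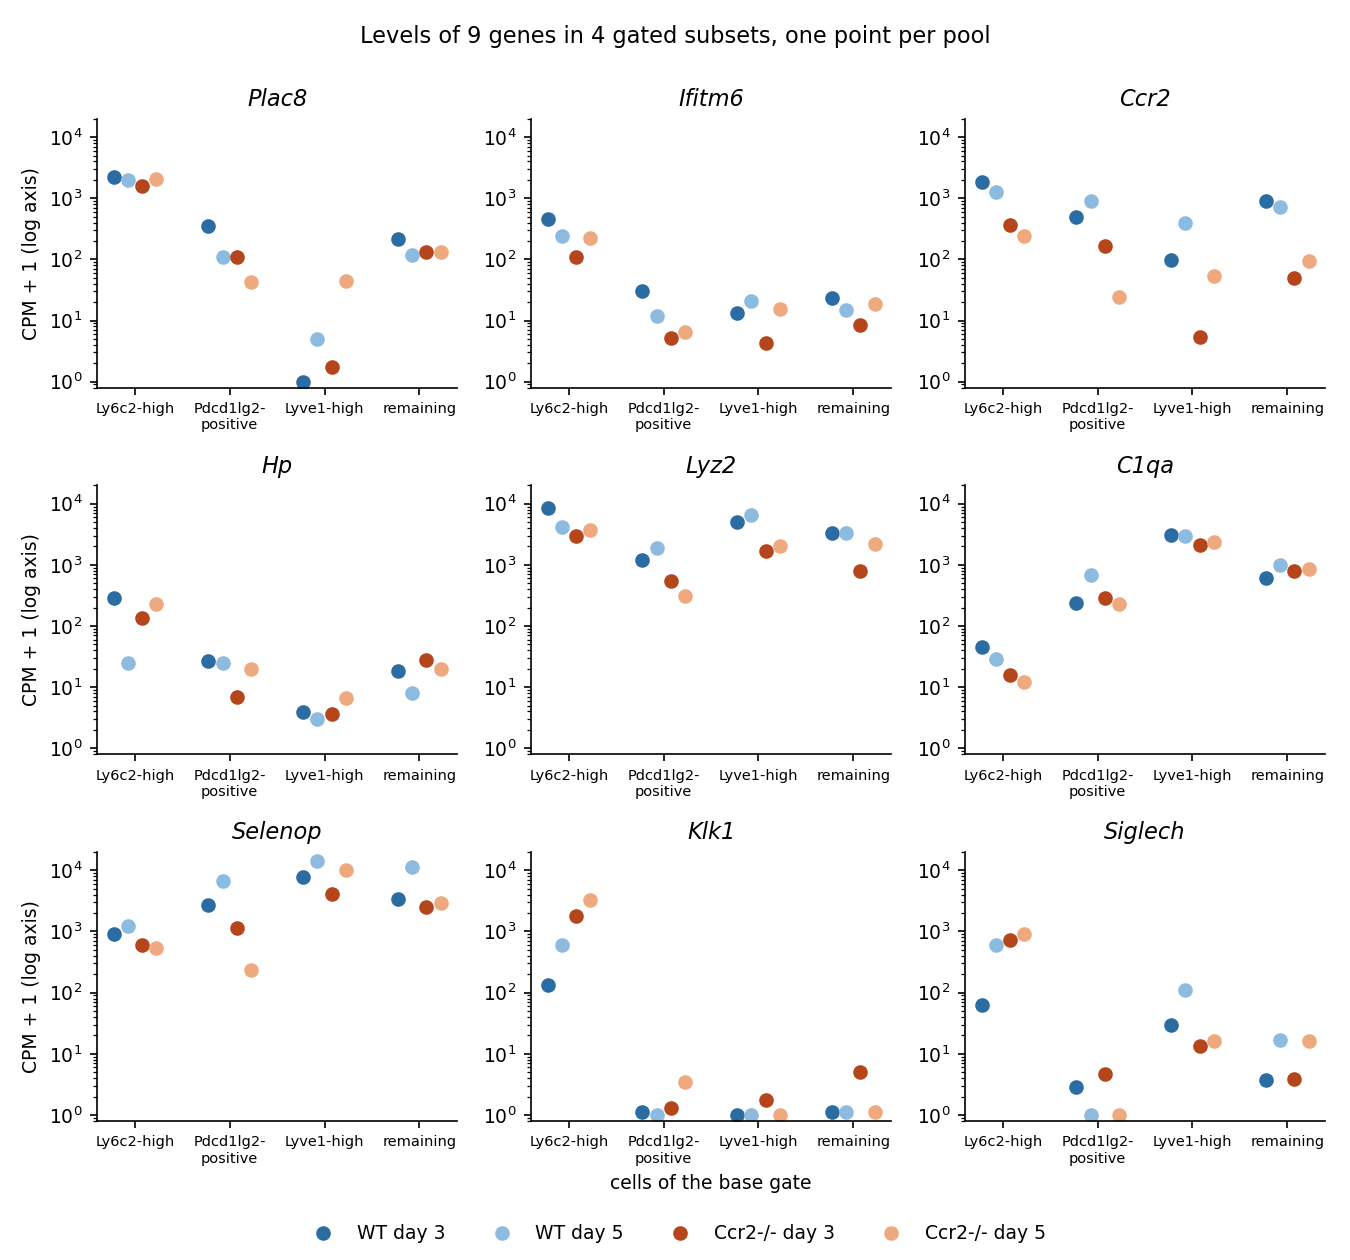
CPM plus 1 (log axis) of 9 genes in Ly6c2-high, Pdcd1lg2-positive, Lyve1-high and remaining cells, with 1 point for each pool. Plac8 and Ifitm6 were higher and C1qa was lower in Ly6c2-high cells of every pool, and Klk1 reached 3232 CPM in the Ccr2-/- day 5 pool while staying near 0 in the other subsets.

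Several lists showed no call in any of the 3 comparisons. Of the 16 inflammatory cytokine and inflammasome genes, 14, 13 and 15 were tested against Pdcd1lg2-positive, Lyve1-high and remaining cells. With all cells 0 of them were called. Il1b was at 1311, 665, 437 and 286 CPM beside 105 CPM in Lyve1-high cells. Without the pDC-marked cells Il1b and Il1rn were called as higher in that comparison. Of the 18 cell cycle genes, 16, 18 and 18 were tested against Pdcd1lg2-positive, Lyve1-high and remaining cells and 0 were called. Their median log2 fold changes were -0.79, -2.48 and -2.18. The Fc receptor genes, the receptor genes for interleukins 4 and 13 and the 14 dissociation stress genes had 0 calls in all 3.

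**Figure D5:**
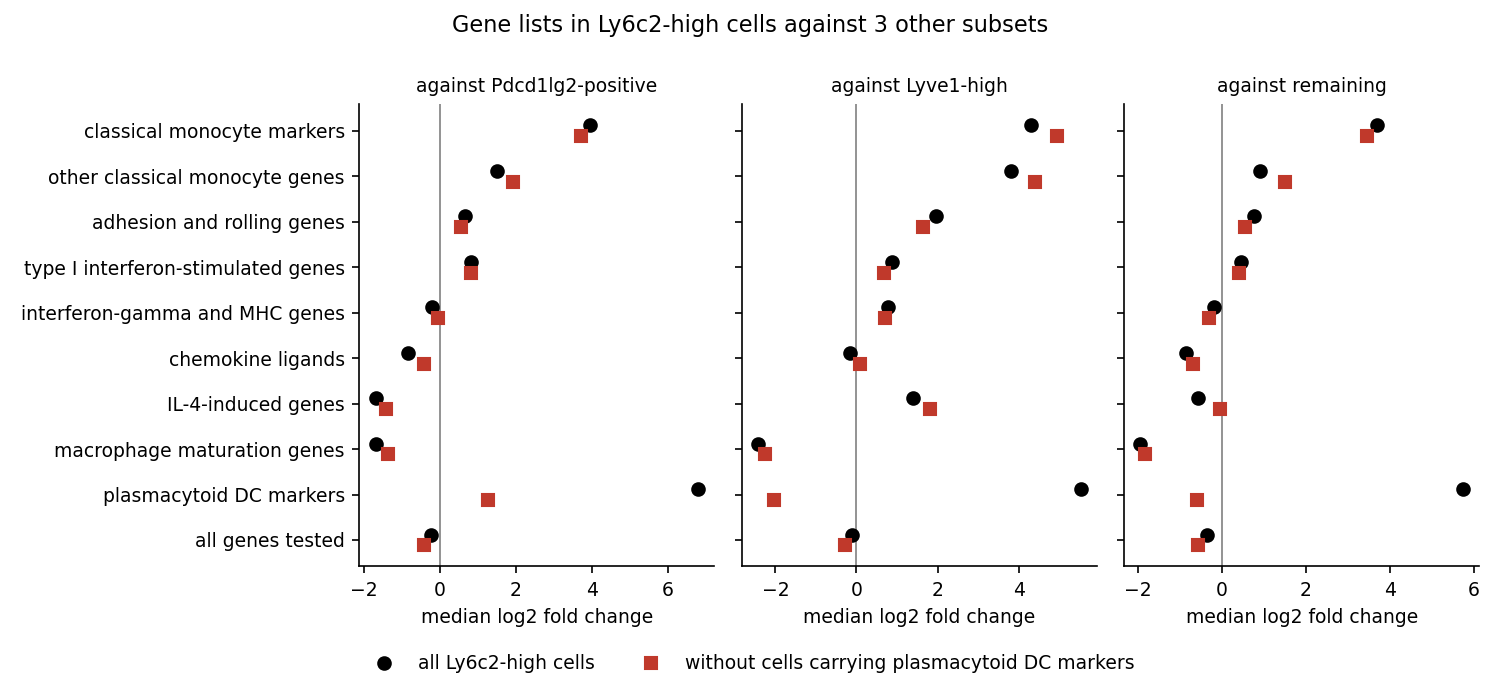
Median log2 fold change (x axis) of the tested genes of each list (y axis) in Ly6c2-high cells against 3 other subsets, with all selected cells (black) and without those carrying pDC markers (red). The median of the macrophage maturation genes against remaining cells was -1.94 with all cells and -1.83 without the marked ones. The pDC marker list shares 4 of its 5 genes with the criterion, so its difference between the colours was fixed by it.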

How the data were processed

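Per the labels and the study's methods, cells of inflamed ears were tagged with hashtag antibodies and sequenced with TAS-Seq on the BD Rhapsody platform. The authors trimmed reads with cutadapt, mapped them with Bowtie2 to GRCm38.p6 transcripts and deposited read counts per gene and barcode. The study's methods also describe a background correction, and whether the deposited counts hold it was not checked here. There were 9 other hashtag columns, which were not used. From these counts, barcodes were gated, assigned to a pool when 1 hashtag, scaled by its column total, was at least 3 times the next, and checked for doublets with Scrublet (scanpy 1.11.5), which marked 76 of 8359 (0.909%). Reads were summed per pool and tested with edgeR 4.0.16 (quasi-likelihood, Benjamini-Hochberg adjustment), as day plus genotype over 4 sums or with the pool as a block over 8 sums. DESeq2 1.42.0 was an alternative, and shares were compared by an exact permutation test. Intervals are exact at 95%. Scripts were tested on simulated data. Reads per barcode ranged from 3113 to 713596. WT day 5 and day 3 were compared on log2(CPM + 1). Named genes were the 12 largest changes in each direction at 50 CPM or more, past an adjusted p of 0.05 and in the same direction in every pool, or, between the WT pools, with intervals apart and, in the pool where the gene was higher, reads in at least 25% of cells and no cell with most of the reads. Genes of the gates, mitochondrial and ribosomal protein genes and unnamed gene models were left out, and any gene of a list could be named within it. The members and the lists were chosen with earlier results of these data known, and the pDC criterion after the data were seen. Results for some genes are not reported here.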

Additional observations from a re-analysis of the deposited data

Results flagged for a closer look

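Fcrla and Cd4 changed in opposite directions between the days in the 2 genotypes, and the difference was not tested because each genotype and day had 1 pool. Fcrla, a protein of the Fc receptor-like family, was at 6.54, 272, 227 and 68.7 CPM in the order used above, a log2 difference of day 5 over day 3 of 5.18 in WT and -1.71 in Ccr2-/-. Without the cells carrying pDC markers it was at 0, 142, 0 and 4.39 CPM. Cd4 was at 4.23, 179, 41.1 and 11.1 CPM, a log2 difference of 5.11 in WT and -1.80 in Ccr2-/-. Without those cells it was at 2.21, 25.3, 6.03 and 0 CPM.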

How the results depend on the processing

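Every alternative kept a higher mean share in WT, by 3.03 to 7.44 percentage points, with a permutation p of 0.333 except for the base gate as denominator (p = 1). The WT change from day 3 to day 5 was -6.04 points, and -4.42 with Ly6c2 at 600 CPM, -17.6 over the base gate, -12.0 over Ptprc-positive cells and -7.69 after thinning to 10000 reads. That of Ccr2-/- was -0.166, and -0.744 and -0.922 over these denominators. The 0 genes called between genotypes became 42 with no filter on low counts, 28 with DESeq2 and 8 after thinning, and the 0 between days became 92 with no filter and 43 with DESeq2. Against Pdcd1lg2-positive cells the 44 calls became 492 with no filter, 573 with DESeq2, 81 at 600 CPM, 158 after thinning and 14 without the pDC-marked cells, an alternative chosen after seeing the data, and leaving out a pool gave 14 to 47. Against Lyve1-high cells the 343 became 782, 1143 with DESeq2 and 205 without the marked cells, with 134 to 197 when a pool was left out. Against remaining cells the 68 became 289, 673 with DESeq2, 107 at 600 CPM, 260 after thinning and 108 with no pool block, with 24 to 94 when a pool was left out. With no filter the calls split into 194 higher and 298 lower against Pdcd1lg2-positive cells and into 109 and 180 against remaining cells. Leaving out a pool gave 6 to 12 maturation genes lower than in Lyve1-high cells, 4 to 8 other classical monocyte genes higher, and 3 to 5 pDC markers higher than in remaining cells, which became 0 without the marked cells, as the criterion for marking them fixes. Without those cells the log2 fold change turned for D13Ertd608e (-2.05) and Klk1b27 (-1.10) against Pdcd1lg2-positive cells, Siglech (-4.52) against Lyve1-high cells, and Fcrla (-0.086), Klk1b27 (-0.37), Siglech (-2.05), Slco4a1 (-0.99), Spib (-0.080) and Traf4 (-2.35) against remaining cells. Pools of 16 to 20 cells limit the levels in 3 of the 4 groups, and the cause of the other changes was not tested.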
